A study of Homo sapiens with 24 samples.

Results

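Tight junction genes and epithelial splicing regulators were followed through 24 Affymetrix arrays, on which RNA of 3 established lines of human breast cancer had been hybridised. The members were 10 genes chosen by name, with earlier results of these data known. They were the claudins CLDN1, CLDN3, CLDN4 and CLDN7, occludin (OCLN), TJP3, MARVELD2, ESRP1, ESRP2 and GRHL2. Of the 19775 genes that had a probe set of their own on the array, 9 were members, with 18 probe sets among the 54613 tested. ESRP2 had none of its own: probe set 219395_at was annotated both to ESRP2 and to MIR6773, a microRNA gene inside the span of ESRP2, so it is given by its ID and counted apart.

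The groups held 3 arrays each. In the shRNA experiment, SUM149PT cells carried a lentiviral shRNA against the lactate transporter MCT1 or, as the control, a scrambled shRNA, and both were kept in puromycin at 2 µg/ml for 5 days. In the inhibitor experiment, SUM149PT, HS578T and SUM159PT cells were exposed for 24 hours to the MCT1 inhibitor AZD3965 or to its vehicle DMSO. HS578T was grown in DMEM and the SUM lines in F12 medium with insulin, hydrocortisone and EGF, so HS578T differed from the others in line and medium at once, and these cannot be told apart. Whether the arrays of a group represent separate cultures is not in the labels. The p-values therefore cover array-to-array spread, possibly technical.

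Tight junctions seal the space between neighbouring epithelial cells near their apical surface. Claudins form the strands and set which ions pass, occludin and MARVELD2 (tricellulin) are membrane proteins of the MARVEL family at contacts between neighbouring cells and at the corners where cells meet, and TJP3 (ZO-3) is a scaffold beneath the strands. ESRP1 and ESRP2 are RNA-binding proteins that direct the epithelial pattern of alternative splicing, as in FGFR2 and CD44, and GRHL2 is a transcription factor that activates epithelial junction genes, claudin 4 among them. ZEB1, ZEB2 and the SNAI factors repress many of these genes through E2-box sequences. In breast tumour lines these genes mark epithelial cells, and low expression of claudins 3, 4 and 7 gave the claudin-low class its name.

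Promoter windows from RefSeq on GRCh38.p14 (250 bases before to 50 after a start) were found for 7 members, 10 windows in all, and not for ESRP1, ESRP2 or GRHL2. They are shown because CLDN7, CLDN4, OCLN and MARVELD2 differed between lines and have known repressors that bind E2 boxes, with CLDN3, the neighbour of CLDN4, for comparison. Capitals mark the E2 box, searched as CAGGTG and its reverse complement CACCTG. The sequences run 5′ to 3′ on the strand of the gene.
CLDN7, second window, chr17:7262429-7262728, minus strand: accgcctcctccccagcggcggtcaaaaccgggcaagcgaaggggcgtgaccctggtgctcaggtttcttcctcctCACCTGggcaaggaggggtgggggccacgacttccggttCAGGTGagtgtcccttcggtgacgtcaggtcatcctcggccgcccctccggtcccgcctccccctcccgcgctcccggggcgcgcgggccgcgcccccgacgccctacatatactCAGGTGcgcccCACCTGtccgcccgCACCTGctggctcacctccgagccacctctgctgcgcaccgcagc
CLDN4, chr7:73830746-73831045, plus strand: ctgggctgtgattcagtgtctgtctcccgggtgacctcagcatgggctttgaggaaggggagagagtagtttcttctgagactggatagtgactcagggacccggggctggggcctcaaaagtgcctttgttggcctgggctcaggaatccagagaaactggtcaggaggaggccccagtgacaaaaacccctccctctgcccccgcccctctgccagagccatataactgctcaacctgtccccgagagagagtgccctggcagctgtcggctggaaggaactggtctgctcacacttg
CLDN3, chr7:73770221-73770520, minus strand: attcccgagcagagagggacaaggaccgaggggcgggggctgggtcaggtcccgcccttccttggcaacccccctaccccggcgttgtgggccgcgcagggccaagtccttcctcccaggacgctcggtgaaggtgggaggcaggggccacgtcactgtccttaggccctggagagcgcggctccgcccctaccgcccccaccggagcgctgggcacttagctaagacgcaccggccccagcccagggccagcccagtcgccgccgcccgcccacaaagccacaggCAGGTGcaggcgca
OCLN, first window, chr5:69492297-69492596, plus strand: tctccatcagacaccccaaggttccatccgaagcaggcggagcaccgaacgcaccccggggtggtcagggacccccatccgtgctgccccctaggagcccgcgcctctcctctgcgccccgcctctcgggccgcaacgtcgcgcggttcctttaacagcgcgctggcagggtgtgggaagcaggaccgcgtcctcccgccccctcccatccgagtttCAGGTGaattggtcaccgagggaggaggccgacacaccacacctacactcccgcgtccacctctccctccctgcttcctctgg
MARVELD2, chr5:69414866-69415165, plus strand: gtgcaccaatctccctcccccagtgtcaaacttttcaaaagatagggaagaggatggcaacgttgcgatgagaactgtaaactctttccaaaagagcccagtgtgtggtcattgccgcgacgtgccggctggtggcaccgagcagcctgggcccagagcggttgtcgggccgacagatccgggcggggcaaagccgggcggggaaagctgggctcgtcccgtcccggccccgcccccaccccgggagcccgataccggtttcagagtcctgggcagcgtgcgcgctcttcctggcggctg
An E2 box was present in 5 of the 10 windows, against 20.6% of all 35116 windows. Those windows came from 4 of 7 genes (CLDN3, CLDN7, OCLN and TJP3), and the share over all genes was not counted. The OCLN windows overlap in part. The second CLDN7 window, the member window with the most matches, held 5, and 33 windows in the table (0.094%) held at least that many. The first CLDN7 window and the first TJP3 window held none, nor did the CLDN4, CLDN1 and MARVELD2 windows. The CLDN1 and TJP3 windows, the first of CLDN7 and the second of OCLN are not printed. A GRHL motif, AACCGGTT, which is its own reverse complement, was in 0 of the 10 windows and in 0.134% of all windows. CLDN3 and CLDN4 are neighbours on chromosome 7, as are MARVELD2 and OCLN on chromosome 5, each pair with 0 other protein-coding genes between them. A match describes letters only; binding was not measured.

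All values are MAS5 signals, a linear brightness per probe set that the authors had scaled, so that the arrays shared 1 trimmed mean. The table gives no detection calls, so a signal of a few units is called dim and not absent. Differences are given on the log2(signal + 16) scale with their standard error (SE). The offset understates the fold of a dim gene. A gene was called when its leading probe set, that of highest mean signal over the 24 arrays, had a limma p under 0.05 after adjustment over all probe sets. Signals of different genes are not set against each other, since probes differ in brightness. Median signals lay between 49.2 and 67.4. Scramble shRNA array 3 stood apart: the 3′ to 5′ ratio of its actin control reached 53.8, where the remaining arrays had 1.2 to 2.14, and its GAPDH ratio was 2.35, where they had 0.798 to 0.948.

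The first comparison asked how the 3 lines differed under DMSO. Most members were far higher in SUM149PT than in either other line. Against HS578T, 7 of 9 members were called higher and 0 lower, where 24.1% of all genes were called higher and 22.6% lower (46.6% in either direction). Against SUM159PT, which shares its medium, 8 of 9 were higher and 0 lower, where 21.0% of all genes were higher and 20.6% lower (41.7% in either direction). The members' median difference was 4.41 against HS578T and 3.95 against SUM159PT, beside −0.03 and −0.02 over all genes. Both comparisons use the same SUM149PT arrays, and the AZD3965 comparisons use the same DMSO arrays again. In cell populations such as these, fewer expressing cells and less RNA per cell cannot be told apart.

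**Figure D1:**
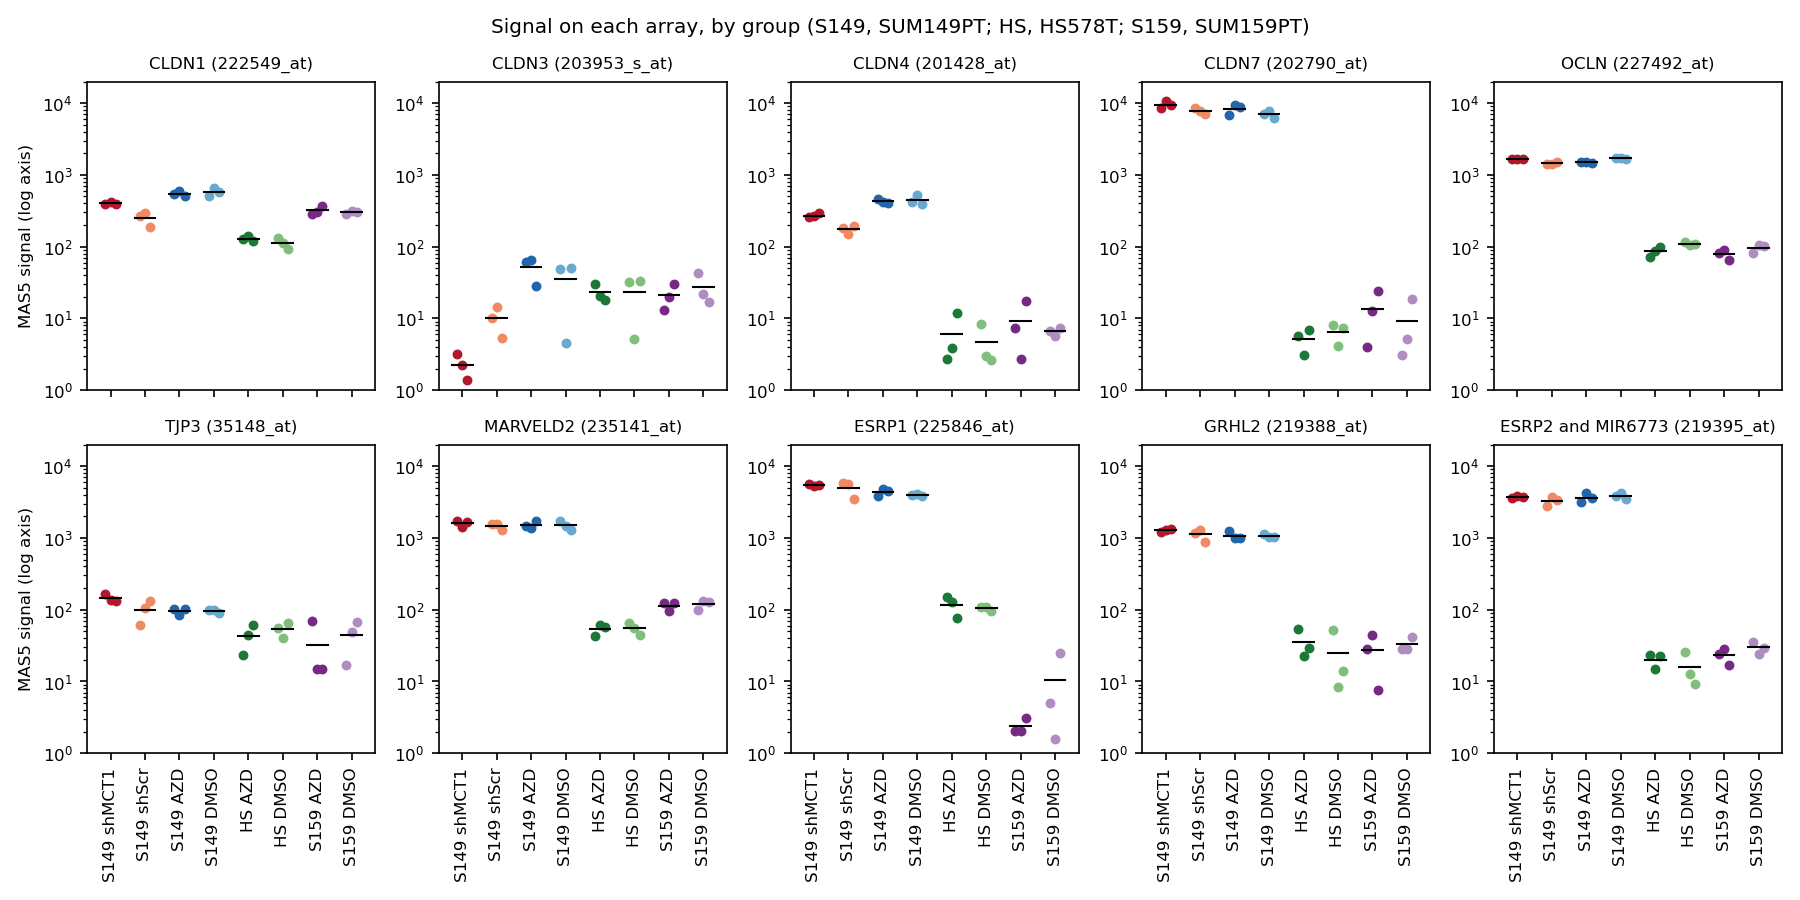
MAS5 signal (log axis) of the leading probe set of each member and of the shared ESRP2 and MIR6773 probe set, 1 point per array and 1 bar per group mean, with 3 arrays in each of 8 groups. CLDN7 lies at 6219 or more on the SUM149PT arrays and at 24.3 or less on the arrays of the other lines, whereas CLDN3 is at 65.4 or less on all 24 arrays.

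Claudin 7, a strand protein of most simple epithelia, showed the widest gap. CLDN7 had signals of 7047, 7861 and 6219 in SUM149PT, against 8.02, 4.07 and 7.41 in HS578T and 3.12, 5.24 and 18.9 in SUM159PT. The SUM149PT arrays lay near the top of the array and those of the other lines near its bottom. The difference was 8.29 ± 0.21 against HS578T (adjusted p = 1.8e-19) and 8.18 ± 0.21 against SUM159PT (adjusted p = 3.2e-19). Because the low side was dim, its size depended on the offset: against HS578T it was 9.91 with an offset of 1 and 6.65 with 64.

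Claudin 4, a strand protein that tightens the paracellular path to sodium, showed the same split between lines. CLDN4 had signals of 419, 528 and 389 in SUM149PT, against 8.27, 3.03 and 2.61 in HS578T and 6.69, 5.76 and 7.47 in SUM159PT. The groups did not overlap, and the difference was 4.48 ± 0.23 against HS578T (adjusted p = 6.72e-14) and 4.34 ± 0.23 against SUM159PT (adjusted p = 1.72e-13). With an offset of 64 the value against HS578T was 2.88. A second CLDN4 probe set, 1569421_at, averaged 12.4 in SUM149PT, against 8.15 in HS578T and 5.22 in SUM159PT, and was not called.

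Claudin 1, essential for the skin barrier, differed by less. CLDN1 had signals of 502, 654 and 575 in SUM149PT, against 134, 112 and 92.2 in HS578T and 290, 309 and 301 in SUM159PT. The order was SUM149PT, SUM159PT, HS578T, with no overlap between any of them. The difference was 2.21 ± 0.15 against HS578T (adjusted p = 1.64e-11) and 0.90 ± 0.15 against SUM159PT (adjusted p = 3.7e-05). Its dimmer probe set 218182_s_at was also higher in SUM149PT, by 1.65 ± 0.33 and 1.20 ± 0.33 (adjusted p = 0.000266 and 0.0063), the second of which was lost without SUM159PT array 3 (0.93, adjusted p = 0.0544).

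Claudin 3, a sealing claudin and the chromosomal neighbour of CLDN4, was not called between SUM149PT and either other line. CLDN3 had signals of 48.9, 4.60 and 51.2 in SUM149PT, against 32.2, 5.13 and 33.5 in HS578T and 42.4, 21.99 and 17.1 in SUM159PT. On this leading probe set the arrays overlapped between all 3 lines, and no order could be given. The difference was 0.28 ± 0.39 against HS578T (95% interval −0.53 to 1.09, adjusted p = 0.669) and 0.10 ± 0.39 against SUM159PT (−0.71 to 0.91, adjusted p = 0.903). These values depended on single arrays. With an array left out, the value against HS578T ran from −0.126 to 0.837 (limma adjusted p of 0.0818 or more). Against SUM159PT it ran from −0.195 to 0.658 (adjusted p of 0.205 or more). Its other probe set, 203954_x_at, averaged 23.4, 26.9 and 7.52 in SUM149PT, HS578T and SUM159PT and was not called either. On that dim probe set the SUM159PT arrays lay below those of both other lines. SUM149PT minus SUM159PT was 0.74 ± 0.35 (adjusted p = 0.123). No array gave the leading CLDN3 probe set more than 65.4.

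Occludin was measured by 4 probe sets, which gave the same direction. OCLN had signals of 1735, 1725 and 1681 in SUM149PT, against 115, 107 and 110 in HS578T and 80.7, 107 and 103 in SUM159PT. The spread within each group was small beside the gap, which was 3.77 ± 0.12 against HS578T (adjusted p = 5.81e-18) and 3.95 ± 0.12 against SUM159PT (adjusted p = 3.91e-18). The other OCLN probe sets were higher in SUM149PT by 1.67 to 3.25 against HS578T and by 1.94 to 3.21 against SUM159PT, all called. A pseudogene of OCLN is annotated in the genome, and signal from it cannot be separated here.

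Tricellulin, which closes the corners where 3 cells meet, followed occludin. MARVELD2 had signals of 1717, 1484 and 1282 in SUM149PT, against 65.2, 55.6 and 44.7 in HS578T and 97.8, 133 and 130 in SUM159PT. The 3 lines did not overlap. The difference was 4.41 ± 0.15 against HS578T (adjusted p = 5.82e-17) and 3.47 ± 0.15 against SUM159PT (adjusted p = 6.69e-15). The second probe set, 235955_at, was higher by 1.85 ± 0.28 and 1.68 ± 0.28 (adjusted p = 8.09e-06 and 3.57e-05).

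The scaffold TJP3 was called in 1 of the 2 comparisons. TJP3 had signals of 97.9, 99.0 and 90.7 in SUM149PT, against 54.8, 40.6 and 64.7 in HS578T and 16.7, 49.4 and 67.5 in SUM159PT. SUM149PT lay above the other lines on each array, yet the difference was called only against SUM159PT (0.99 ± 0.37, adjusted p = 0.0427) and not against HS578T (0.70 ± 0.37, adjusted p = 0.154). The call was lost when any SUM149PT array, or SUM159PT array 1 or 2, was left out, with a lowest value of 0.60 (adjusted p = 0.276). It was also lost with an offset of 1 (1.30, adjusted p = 0.0563) and with only the groups compared in the fit (adjusted p = 0.0677), a fit that called TJP3 against HS578T (adjusted p = 0.0463). Probe set 213412_at was dim and not called, at 13.2 in SUM149PT, against 8.72 in HS578T and 6.30 in SUM159PT.

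**Figure D2:**
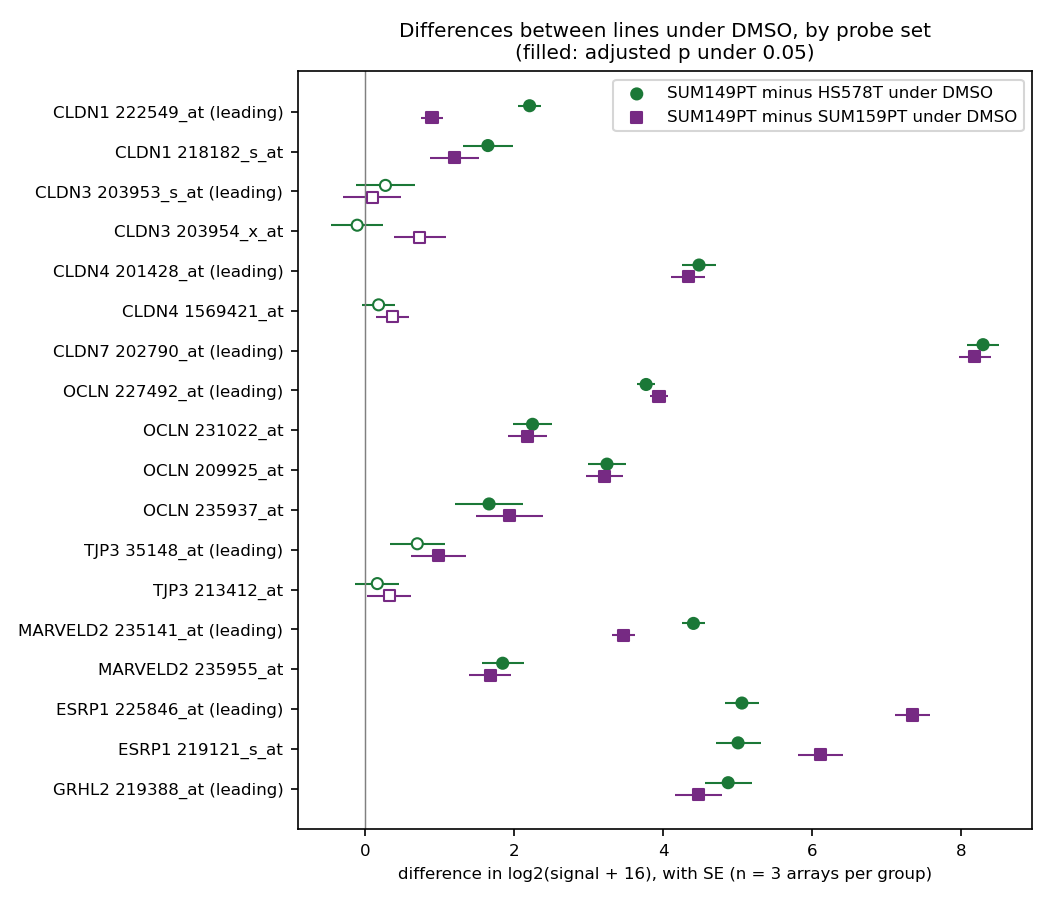
Difference in log2(signal + 16) under DMSO, SUM149PT minus HS578T (circles) and SUM149PT minus SUM159PT (squares), for the 18 member probe sets, with SE; filled symbols have an adjusted p under 0.05. The largest value is CLDN7 at 8.29, and the open symbols include both CLDN3 probe sets and the second CLDN4 and TJP3 probe sets.

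Among the regulators, ESRP1 separated all 3 lines. ESRP1 had signals of 4010, 4149 and 3896 in SUM149PT, against 109, 110 and 96.9 in HS578T and 5.08, 1.58 and 25.1 in SUM159PT. The difference was 5.06 ± 0.23 against HS578T (adjusted p = 1.09e-14) and 7.35 ± 0.23 against SUM159PT (adjusted p = 1.58e-17). The HS578T arrays lay between the other lines and overlapped neither. Probe set 219121_s_at averaged 1777 in SUM149PT, against 47.6 in HS578T and 10.3 in SUM159PT, with differences of 5.01 ± 0.30 and 6.11 ± 0.30 (adjusted p = 1.6e-12 and 5.7e-14).

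Probe set 219395_at, whose design accession belongs to ESRP2, gave the next largest gap against HS578T after CLDN7 among the member probe sets. It had signals of 3788, 4250 and 3526 in SUM149PT, against 25.6, 12.9 and 9.11 in HS578T and 35.6, 24.5 and 29.3 in SUM159PT. The difference was 6.95 ± 0.17 against HS578T (adjusted p = 7.79e-20) and 6.40 ± 0.17 against SUM159PT (adjusted p = 5.02e-19). The annotation does not settle which of ESRP2 and MIR6773 it should be credited to.

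GRHL2 had signals of 1145, 1023 and 1032 in SUM149PT, against 52.5, 8.48 and 13.95 in HS578T and 28.5, 28.3 and 41.9 in SUM159PT. Its level was high and even in SUM149PT and dim in the other lines. The difference was 4.87 ± 0.31 against HS578T (adjusted p = 5.31e-12) and 4.48 ± 0.31 against SUM159PT (adjusted p = 3.47e-11).

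HS578T and SUM159PT differed from each other in 3 of the 9 members. One was higher in HS578T and 2 were lower, where 41.3% of all genes were called, 19.9% higher and 21.4% lower. ESRP1 was higher in HS578T, by 2.29 ± 0.23 (adjusted p = 2.46e-08), and its second probe set by 1.10 ± 0.30 (adjusted p = 0.0062), although the groups of that probe set overlapped and its call was lost without HS578T array 1 (0.83, adjusted p = 0.0577) or array 2 (0.80, adjusted p = 0.0647), and with only the groups compared in the fit (adjusted p = 0.106). CLDN1 fell by 1.31 on the log2 scale in HS578T relative to SUM159PT (SE 0.15, adjusted p = 1.93e-07). MARVELD2 fell by 0.94 (SE 0.15, adjusted p = 2.71e-05). The second probe sets of both genes overlapped between the lines and were not called, at −0.45 for CLDN1 (adjusted p = 0.379) and −0.17 for MARVELD2 (adjusted p = 0.752). GRHL2 was not called (−0.39 ± 0.31, adjusted p = 0.42), but was called without HS578T array 1 (−0.84, adjusted p = 0.03). Probe set 219395_at was lower by −0.55 ± 0.17 (adjusted p = 0.0135), a call lost without HS578T array 2 (−0.495) or 3 (−0.395), or SUM159PT array 1 (−0.46). It was also lost with an offset of 64 (−0.24, adjusted p = 0.132) and with only the groups compared in the fit (−0.55, adjusted p = 0.203). CLDN4, CLDN7, OCLN, TJP3 and CLDN3 were not called, with differences of the leading probe sets from −0.18 to 0.29. CLDN3 probe set 203954_x_at was at 0.84 ± 0.35 without overlap and was not called (adjusted p = 0.0755). With only the groups compared in the fit it was called (adjusted p = 0.0448).

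Other genes of the epithelial programme were counted by list, and the lists too were chosen with earlier results of these data known. Over all genes, 24.1% were called higher and 22.6% lower against HS578T, and 21.0% higher and 20.6% lower against SUM159PT. Epithelial surface and adhesion genes, a list that also held keratins and CDS1, were mostly called higher in SUM149PT. The counts were 19 of 19 against HS578T and 18 of 19 against SUM159PT, with medians of 4.46 and 4.92. E-cadherin, CDH1, averaged 8772 ± 596 in SUM149PT, against 4.26 ± 1.31 in HS578T and 3.53 ± 0.54 in SUM159PT (SD, n = 3 each). EPCAM, a surface protein that binds claudin 7, averaged 14970 ± 551 in SUM149PT, against 12.5 ± 3.86 in HS578T and 54.6 ± 35.9 in SUM159PT. Of 12 epithelial transcription factors, 9 were higher and 0 lower in SUM149PT in each comparison. OVOL2, a repressor of ZEB1, averaged 1901 ± 19.8 in SUM149PT, against 59.6 ± 9.62 in HS578T and 48.5 ± 10.5 in SUM159PT.

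Repressors of epithelial genes and mesenchymal markers ran the other way, with 1 higher and 9 lower of 10 in SUM149PT against HS578T and 1 higher and 7 lower against SUM159PT. ZEB1 averaged 86.1 ± 16.9 in SUM149PT, against 4895 ± 34.7 in HS578T and 3763 ± 26.3 in SUM159PT, a difference of −5.60 ± 0.24 and −5.22 ± 0.24 (adjusted p = 2.55e-15 and 1.34e-14). ZEB2 averaged 40 in SUM149PT, against 572 in HS578T and 625 in SUM159PT. The member of the list that was higher in SUM149PT was SNAI1, at 158 ± 29.6, against 22.4 ± 10.5 in HS578T and 25.3 ± 14.2 in SUM159PT. Vimentin, VIM, was high in every line, at 9516 in SUM149PT, against 23620 in HS578T and 23440 in SUM159PT.

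**Figure D3:**
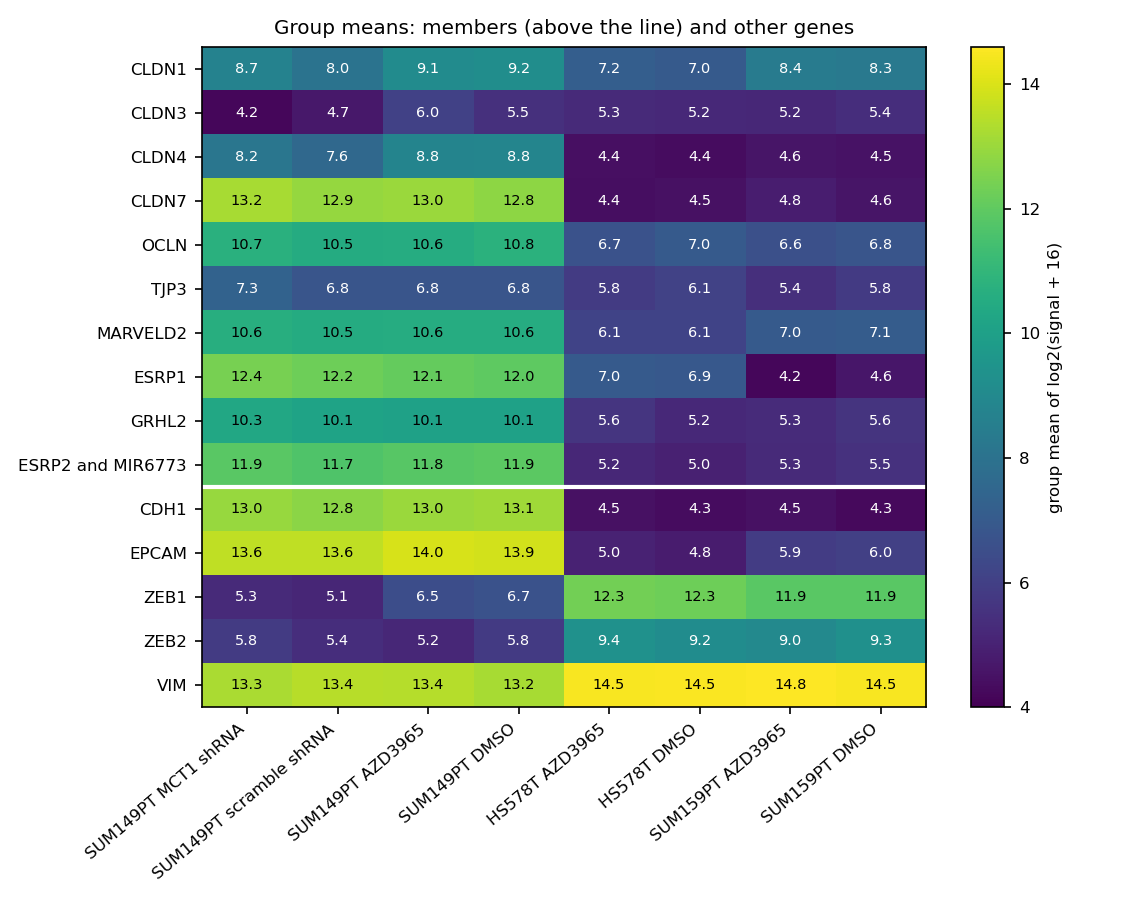
Group mean of log2(signal + 16) for the members (above the white line) and for CDH1, EPCAM, ZEB1, ZEB2 and VIM (below it), in the 8 groups of 3 arrays. The SUM149PT groups are high for most members, CDH1 and EPCAM and low for ZEB1 and ZEB2, with CLDN3 low throughout; colours compare groups within a row.

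The remaining junction genes were mixed in direction. Beside their counts, 24.1% of all genes were called higher and 22.6% lower against HS578T, and 21.0% and 20.6% against SUM159PT. Of 17 other claudin genes, 3 were higher in SUM149PT in both comparisons: CLDN12, CLDN23 and CLDND1. None was lower against HS578T and 1 was lower against SUM159PT, CLDN17, at 12.2 ± 4.89 in SUM149PT, against 55.3 ± 35.9 in SUM159PT (−1.20 ± 0.39, adjusted p = 0.0211). CLDN23 averaged 233 ± 41.2 in SUM149PT, against 24.3 ± 8.65 in HS578T and 6.74 ± 3.29 in SUM159PT, while the list median was −0.16 and −0.09. Of 22 junction adhesion, scaffold and tricellular genes, 9 were higher and 4 lower against HS578T, and 8 higher and 4 lower against SUM159PT. CXADR, a junction adhesion protein, averaged 1670 ± 584 in SUM149PT, against 68.0 ± 23.4 in HS578T, and LSR, which recruits tricellulin to cell corners, 1614 ± 21.3, against 133 ± 25.3 in SUM159PT. JAM3 was lower, at 23.9 ± 16.6 in SUM149PT, against 1653 ± 84.0 in HS578T and 767 ± 61.7 in SUM159PT. TJP1 (ZO-1), a relative of TJP3, averaged 8778 ± 343 in SUM149PT, against 3322 ± 310 in HS578T and 4624 ± 184 in SUM159PT.

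Apical polarity genes were higher in 11 and lower in 6 of 19 against HS578T, and higher in 11 and lower in 2 against SUM159PT. RAB25, a trafficking GTPase of epithelia, averaged 1582 ± 62.5 in SUM149PT, against 4.57 ± 1.81 in HS578T and 4.07 ± 2.26 in SUM159PT. Of 20 other splicing regulators, 5 were higher and 8 lower against HS578T, and 5 higher and 7 lower against SUM159PT. For both lists, the shares of all genes were 24.1% higher and 22.6% lower against HS578T, and 21.0% and 20.6% against SUM159PT. RBM47, an RNA-binding protein of epithelia, averaged 1564 ± 371 in SUM149PT, against 83.7 ± 25.5 in HS578T and 136 ± 16 in SUM159PT. RBPMS, a splicing regulator of smooth muscle, averaged 548 ± 15.2 in SUM149PT, against 4566 ± 272 in HS578T and 2196 ± 36.2 in SUM159PT. HS578T and SUM159PT differed widely in 2 of these: RBM24 averaged 1625 ± 144 in HS578T, against 54.7 ± 12.6 in SUM159PT, and CELF2 1229 ± 92.1, against 41.1 ± 9.15.

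Markers of other cell types were checked. The summed signal of 6 leukocyte markers was 668 to 822 in SUM149PT, against 357 to 450 in HS578T and 443 to 790 in SUM159PT, with PTPRC at a mean of 11.4 in SUM149PT, against 39.0 in HS578T and 23.7 in SUM159PT. For 7 endothelial markers the sum was 175 to 321 in SUM149PT, against 396 to 526 in HS578T and 242 to 291 in SUM159PT. For 5 adipocyte markers it was 1084 to 1168 in SUM149PT, mostly LPL at 1104, against 315 to 386 in HS578T and 270 to 332 in SUM159PT, with ADIPOQ at 2.79 in SUM149PT, against 8.91 in HS578T and 8.04 in SUM159PT. CD14 averaged 389 in SUM149PT, against 34.2 in HS578T and 22.2 in SUM159PT. The part of these genes in the line differences was not tested. Of the epithelial markers, KRT18 was bright in all 3 lines, at 15900 in SUM149PT, against 5629 in HS578T and 7470 in SUM159PT. CDH1, EPCAM and KRT19 were dim in HS578T and SUM159PT, KRT19 at 4278 in SUM149PT, against 1.48 in HS578T and 1.83 in SUM159PT. KRT8 averaged 306 in HS578T and 2949 in SUM159PT.

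The members' shared profile, the mean log2 value of their leading probe sets, was correlated over the 24 arrays with 3533 genes that differed by at least 2 between groups. The highest r belonged to PKP1 (0.997), CDH1 (0.997), CDH3 (0.996), SLC43A3 (0.996) and PRXL2A (0.996). The lowest belonged to FBLN1 (−0.996), MAGEA6 (−0.995), GJA1 (−0.995), EVC (−0.994) and MAGEA12 (−0.994). The arrays fall into clusters by line and share their scaling, so these r include the split between SUM149PT and the other lines. Within the 12 SUM149PT arrays, r was 0.873 for CDH1, 0.634 for PKP1, 0.448 for PRXL2A, 0.045 for SLC43A3 and −0.391 for CDH3. For the lowest genes it ran from −0.38 (EVC) to 0.065 (GJA1). These arrays still span 2 experiments, with member means of 9.27 (scramble), 9.52 (MCT1 shRNA), 9.61 (DMSO) and 9.68 (AZD3965). For the highest genes, r ran from 0.001 (PKP1) to 0.522 (CDH1) within HS578T, and from −0.361 (CDH1) to 0.781 (SLC43A3) within SUM159PT. GJA1, the gap junction connexin 43, averaged 12.7 ± 6.75 in SUM149PT, against 13120 ± 720 in HS578T and 9930 ± 386 in SUM159PT.

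Each member was likewise set against the mean of the others over 24 arrays, as a description. OCLN (0.994), CLDN7 (0.992), GRHL2 (0.985), CLDN4 (0.981), MARVELD2 (0.976) and ESRP1 (0.938) followed it. TJP3 (0.779) and CLDN1 (0.669) followed it less closely, and CLDN3 did not (−0.122). These r also include the split between SUM149PT and the other lines, and r within a line was not computed for single members.

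The shRNA comparison asked how SUM149PT cells differed when MCT1 was targeted. One of 9 members, CLDN1, was called higher and 0 lower, where 7.84% of all genes were called in either direction. An unadjusted p under 0.05 was found for 2 of 9 members and for 21.2% of all genes. The members' median difference was 0.22, beside 0.01 over all genes. CLDN1 had signals of 390, 419 and 390 with the MCT1 shRNA, against 269, 292 and 188 with the scramble. The groups did not overlap, and the difference was 0.67 ± 0.15 (95% interval 0.35 to 0.98, adjusted p = 0.00895).

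That call rested on few arrays and on 1 of 2 probe sets. Without scramble array 3, which had the lowest CLDN1 signal and the high actin ratio, the difference was 0.49 (adjusted p = 0.0624). With only the 6 shRNA arrays in the fit it was 0.67 (adjusted p = 0.152), and with each array centred on its median it was 0.56 (adjusted p = 0.0688). Over the alternatives other than left-out arrays the adjusted p ran from 0.00587 to 0.152. The second CLDN1 probe set averaged 36.1 ± 20.5 with the MCT1 shRNA and 33.0 ± 11.8 with the scramble (0.04 ± 0.33, adjusted p = 0.982).

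CLDN4 was the next member by size. CLDN4 had signals of 255, 266 and 292 with the MCT1 shRNA, against 181, 149.4 and 192 with the scramble. The groups did not overlap, but the difference of 0.60 ± 0.23 (95% interval 0.13 to 1.07) was not called (adjusted p = 0.152). An offset of 64 gave 0.50 and a call (adjusted p = 0.0184), within a range over such alternatives of 0.0184 to 0.591.

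The remaining members were not called. OCLN had signals of 1671, 1685 and 1688 with the MCT1 shRNA, against 1404, 1428 and 1500 with the scramble (0.22 ± 0.12, adjusted p = 0.365), with no overlap. Groups lay apart in 4 of the 18 member probe sets. The share over all probe sets was not counted, so nothing is concluded from groups lying apart in this comparison. CLDN3 had 3.15, 2.24 and 1.41 with the MCT1 shRNA, against 10.2, 14.5 and 5.37 with the scramble (−0.50 ± 0.39, adjusted p = 0.606), dim on both sides. TJP3 averaged 145 ± 18.7 with the MCT1 shRNA and 100.4 ± 35.8 with the scramble (0.51 ± 0.37, adjusted p = 0.559). CLDN7, ESRP1, GRHL2 and MARVELD2 differed by 0.29, 0.18, 0.21 and 0.11, with adjusted p from 0.562 to 0.839, and probe set 219395_at by 0.19 (adjusted p = 0.675). On scramble array 3, ESRP1 stood at 3474, below the other scramble arrays at 5815 and 5634, and GRHL2 at 873, below 1184 and 1302. TJP3 probe set 213412_at was called lower only when MCT1 shRNA array 1 was left out (−1.11, adjusted p = 0.0201).

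**Figure D4:**
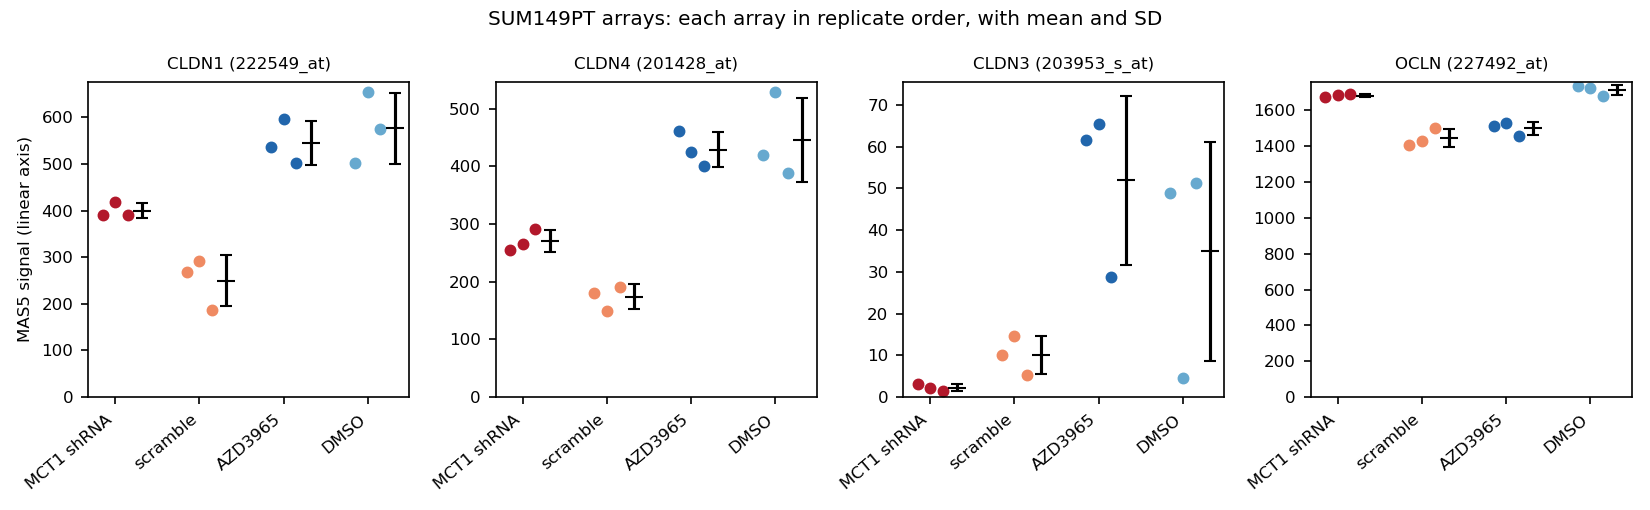
MAS5 signal (linear axis) of CLDN1, CLDN4, CLDN3 and OCLN in the 4 SUM149PT groups, 1 point per array with the mean and SD beside it (n = 3). CLDN1 lies at 390 to 419 with the MCT1 shRNA and at 188 to 292 with the scramble; the third scramble array is the one with the high actin ratio.

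Among the context lists, that of epithelial surface and adhesion genes held 3 that were higher with the MCT1 shRNA and 0 lower, of 19. These were keratins and a lipid synthesis enzyme, and no surface or adhesion protein. Over all genes 7.84% were called in either direction. KRT19, a simple-epithelium keratin, averaged 12870 ± 272 with the MCT1 shRNA and 6097 ± 820 with the scramble (1.09 ± 0.10, adjusted p = 3.69e-07). KRT8, a keratin that pairs with KRT18, was also higher, at 8556 ± 498 with the MCT1 shRNA and 5725 ± 1884 with the scramble (0.64 ± 0.17, adjusted p = 0.028). CDS1, a lipid synthesis enzyme, was higher too (0.41 ± 0.09, adjusted p = 0.00936). CDH1 was not called (0.20 ± 0.15, adjusted p = 0.609). Of 12 epithelial transcription factors, KLF5 was higher (0.72 ± 0.19, adjusted p = 0.0223) and EHF lower (−1.23 ± 0.23, adjusted p = 0.00188). SNAI2, a repressor, was lower, at 1747 ± 138 with the MCT1 shRNA and 2325 ± 61.5 with the scramble (−0.41 ± 0.07, adjusted p = 0.000639), and SPARC, a matrix protein, was higher, at 45.0 ± 5.80 with the MCT1 shRNA and 11.5 ± 11.3 with the scramble. Of 20 other splicing regulators, MBNL2 was higher (0.44 ± 0.11, adjusted p = 0.0163) and RBM24 lower (−1.29 ± 0.19, adjusted p = 0.000135). Single context genes were not followed through the alternatives, so their dependence on scramble array 3 is not known. Over all genes, calls with the MCT1 shRNA numbered 1551, and 1278 without that array and 286 with only the groups compared.

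Junction genes outside the members were counted in that comparison too, where 7.84% of all genes were called. Of 17 other claudin genes 1 was lower, CLDND1 (−0.35 ± 0.09, adjusted p = 0.016), and of 22 adhesion and scaffold genes 1 was lower, MARVELD1 (−0.52 ± 0.11, adjusted p = 0.00388). MARVELD1 averaged 1498 ± 118 with the MCT1 shRNA and 2187 ± 471 with the scramble. Of 19 polarity genes limma called 0, and 2 had an unadjusted p under 0.05 (10.5%, against 21.2% of all genes).

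After 24 hours of AZD3965 no member passed the limma test in any of the 3 lines. In SUM149PT 0 of 9 members were called, where 0.0152% of all genes were, and 0 had an unadjusted p under 0.05, against 13.7% of all genes. In HS578T 0 were called, where 0.116% of all genes were, and 1 had an unadjusted p under 0.05, against 7.32% of all genes. In SUM159PT 0 were called, where 0% of all genes were, and 1 had an unadjusted p under 0.05, against 6.13% of all genes. That member was OCLN in both lines. The lowest adjusted p of any member probe set was 0.576 in SUM149PT, 0.614 in HS578T and 0.893 in SUM159PT.

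The leading occludin probe set was lower on average with AZD3965 in the 3 lines, without passing the test. In SUM149PT, OCLN had signals of 1510, 1529 and 1455 with AZD3965, against 1735, 1725 and 1681 with DMSO (−0.19 ± 0.12, 95% interval −0.43 to 0.05). In HS578T it had 71.1, 87.6 and 99.9 with AZD3965, against 115, 107 and 110 with DMSO (−0.32 ± 0.12, −0.56 to −0.08). In SUM159PT it had 82.1, 91.0 and 65.7 with AZD3965, against 80.7, 107 and 103 with DMSO (−0.24 ± 0.12, −0.48 to −0.0011). The groups lay apart in SUM149PT and HS578T and overlapped in SUM159PT. Of the 18 member probe sets, 2 lay apart in SUM149PT, 2 in HS578T and 0 in SUM159PT. The share over all probe sets was not counted, so no conclusion is drawn from the separation. The other 3 OCLN probe sets did not follow it. In SUM159PT they were all higher on average with AZD3965, by 0.22 (231022_at), 0.07 (209925_at) and 0.33 (235937_at). In HS578T they differed by 0.09, 0.0079 and −0.40 in the same order, and in SUM149PT by 0.10, −0.29 and 0.03, none called.

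The leading probe sets of the 9 members bounded the inhibitor effect on those probe sets only. Their differences ran from −0.19 to 0.55 in SUM149PT, with 95% intervals reaching from −0.75 to 1.36. In HS578T they ran from −0.32 to 0.42, with intervals from −1.03 to 1.07, and in SUM159PT from −0.43 to 0.24, with intervals from −1.15 to 0.67. The widest intervals belonged to dim genes. Over all 18 member probe sets the differences reached further, from −0.29 to 0.55 in SUM149PT, −0.46 to 0.74 in HS578T and −0.43 to 0.75 in SUM159PT. The highest in HS578T was ESRP1 219121_s_at (95% interval 0.11 to 1.36, adjusted p = 0.698), and none was called. CLDN7 averaged 8318 ± 1311 with AZD3965 and 7042 ± 821 with DMSO in SUM149PT (0.23 ± 0.21), and ESRP1 4370 ± 501 with AZD3965 and 4018 ± 127 with DMSO (0.11 ± 0.23). GRHL2 averaged 1069 ± 139 with AZD3965 and 1067 ± 68.0 with DMSO in SUM149PT (−0.0025 ± 0.31). Between lines, the effect of AZD3965 was compared by an F test that called 0 of the 9 members, where 0.0202% of all genes were, and 0 had an unadjusted p under 0.05, against 8.8% of all genes. Of the 119 genes in the 7 context lists of epithelial, junction, polarity, splicing and repressor genes, limma called 0 with AZD3965 in each line. An unadjusted p under 0.05 was found for 15 of them in SUM149PT (12.6%, against 13.7% of all genes), for 8 in HS578T (6.72%, against 7.32%) and for 10 in SUM159PT (8.4%, against 6.13%).

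**Figure D5:**
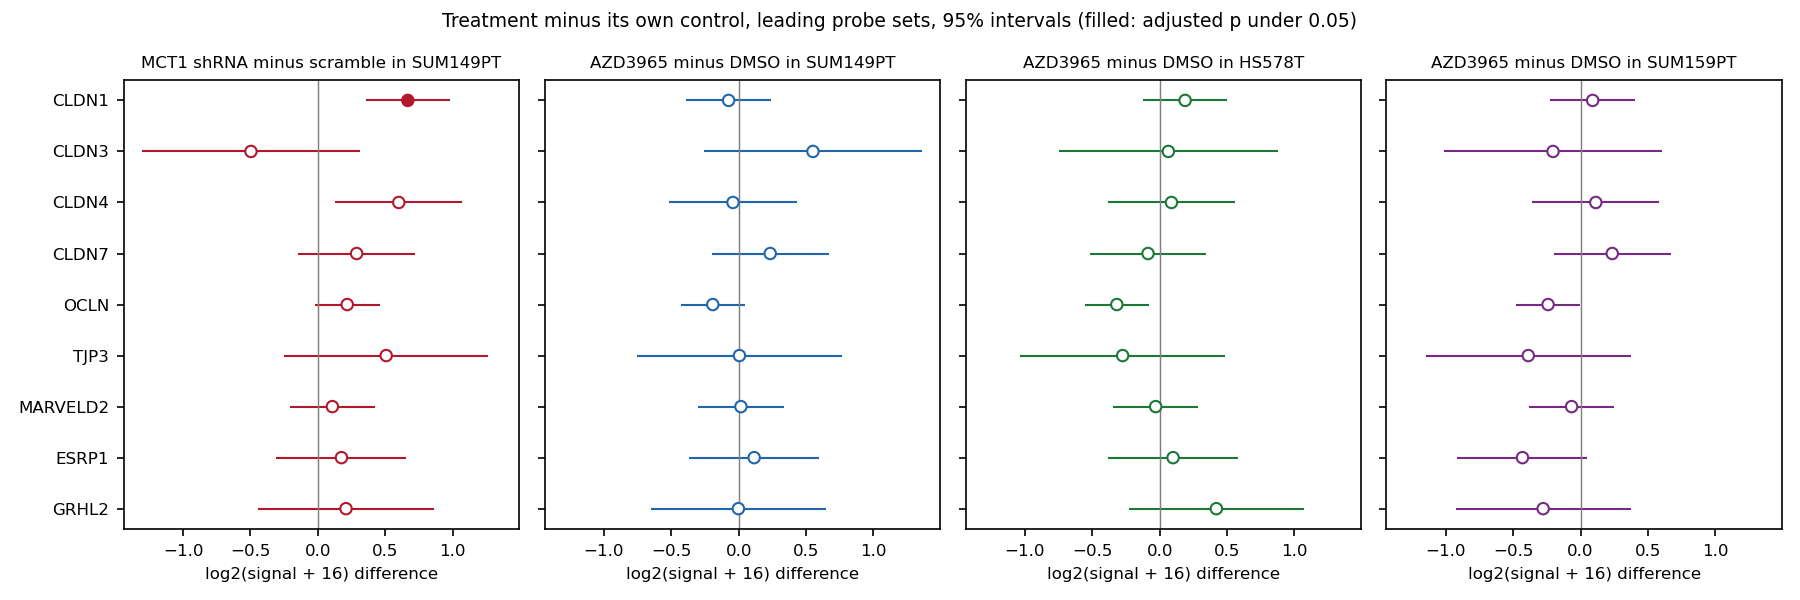
Difference in log2(signal + 16) of each treatment from its own control for the leading probe set of each of the 9 members, with 95% intervals (3 arrays per group); filled symbols have an adjusted p under 0.05. CLDN1 with the MCT1 shRNA, at 0.67, is the filled point, and OCLN lies below 0 under AZD3965 in each line.

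The difference between the shRNA effect and the AZD3965 effect in SUM149PT was tested directly. No member was called, where 3.96% of all genes were. An unadjusted p under 0.05 was found for 2 of 9 members, CLDN1 and OCLN, and for 18.6% of all genes. CLDN1 came nearest, at 0.74 ± 0.21 (95% interval 0.30 to 1.19, adjusted p = 0.0717). It was called after a filter on dim probe sets (adjusted p = 0.0463), with 1 probe set per gene (adjusted p = 0.0475) and without scramble array 2 (0.86, adjusted p = 0.0281). The range over the alternatives other than left-out arrays was 0.0463 to 0.206. OCLN differed by 0.41 ± 0.16 (adjusted p = 0.227).

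SUM149PT levels also stood apart between the experiments, which differed in virus, selection and controls, so they are set side by side with no test. CLDN4 lay between 149.4 and 292 in the shRNA experiment and between 389 and 528 in the inhibitor experiment. CLDN1 lay between 188 and 419 in the shRNA experiment and between 502 and 654 in the inhibitor experiment, and its second probe set lay between 16.5 and 57.4 in the shRNA experiment and between 80.2 and 105 in the inhibitor experiment. CLDN7, OCLN, MARVELD2 and GRHL2 overlapped between the experiments. EHF averaged 555 ± 48.9 with the scramble and 5694 ± 458 with DMSO. Since the experiment and everything done differently in it coincide, their parts cannot be told apart.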

How the data were processed

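RNA of 24 samples was hybridised to Affymetrix U133 Plus 2.0 arrays, 3 per group in 8 groups. The deposited values are linear intensities from MAS5, as named in the submitters' processing notes without a version. Their trimmed mean was 500.1 on every array, so the authors had scaled them; no further normalization was applied.

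From these intensities, log2(signal + 16) was computed and fitted in limma 3.58.1 (R 4.3.3) with 8 group means over all 24 arrays and a mean-variance trend. The fit held 54613 probe sets without a filter; 62 control probe sets were left out. Tests were two-sided, with Benjamini-Hochberg adjustment over all probe sets and a threshold of 0.05. Probe sets were named by the platform annotation: 41091 had 1 symbol, 1801 several and 11721 none. A gene was called by its leading probe set. The number of arrays limits the precision.

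The members and lists were chosen with earlier results of these data known. Of each context list, genes were named from up to 3 called ones of smallest p in each direction and comparison, and ZEB1, ZEB2, CDH1, EPCAM and VIM whatever their values; from the likeness ranking, the 5 genes of highest and 5 of lowest r. Single markers of other cell types were chosen after their values were seen. The model was tested on simulated data. The gene targeted by the shRNA and inhibitor is not reported here. Alternatives tried were other offsets, centring, a filter, array weights, fewer samples and a replicate block.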

Additional observations from a re-analysis of the deposited data

How the results depend on the processing

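Of 2772 alternatives for single probe sets, 2744 kept their side of the threshold, 8 gained a call and 20 lost one. The sign changed in 135 of the 2744, over 56 results, none of them called as reported (adjusted p of 0.59 or more); no called value changed sign. The count of members called with the MCT1 shRNA, reported as 1, was 0 with median centring, 0 with only the groups compared, 2 with an offset of 64, and 0 to 1 with an array left out. The count for the shRNA effect minus the AZD3965 effect, 0, was 1 with the filter on dim probe sets, 1 with 1 probe set per gene, and 0 to 1 with an array left out. Between lines the counts stayed at 7 to 8, 7 to 8 and 3 to 4.

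Over all genes, calls with the MCT1 shRNA numbered 1551, and 286 with only the groups compared. Calls for the shRNA effect minus the AZD3965 effect numbered 784, and 250 with median centring and 315 with only the groups compared. With AZD3965 in HS578T they numbered 23, and 87 with array weights and 9 with only the groups compared, and in SUM149PT 3, and 286 without AZD3965 array 1. The cause was not tested. Median centring moved the all-gene median with AZD3965 in HS578T to 0.12, against −0.04 without it, and with the MCT1 shRNA to −0.10, against 0.01, and higher genes to 24.3% of those called, against 49.8%. The replicate numbers did not pair the arrays: the 12 same-number correlations ran from −0.114 to 0.026. With the replicate block, the TJP3 call against SUM159PT was lost (0.99, adjusted p = 0.0501, in a range of 0.0196 to 0.0677 over the alternatives), and no other member's call changed. The filter left CLDN3 untested.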
